A study of Mus musculus with 46 samples.

Results

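Very wide H3K27ac domains of adult mouse microglia were followed across 12 H3K27ac libraries. They were defined as the H3K27ac regions of adult replicate 1 that span at least 4000 bp and overlap, by at least 1 bp, a region of adult replicate 2 that also spans at least 4000 bp. There were 239 such domains among the 19572 regions of adult replicate 1. In all, 273 regions of adult replicate 1 and 621 of the 24903 regions of adult replicate 2 reached that width. The widths of the adult lists chose the domains, so adult widths and adult tag counts are given here as a description and were not tested.

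Microglia are the resident macrophages of the brain. H3K27ac, acetylation of lysine 27 on histone H3, marks active promoters and enhancers, and long unbroken stretches of it are known to lie at genes that carry a cell type's identity. In microglia, PU.1 (encoded by Spi1), MEF2 factors and SMAD factors downstream of TGF-beta bind many of these elements, and P2ry12 and Tgfbr1 are among the genes that tell resting microglia from other macrophages. Ki67 is a nuclear protein of cycling cells and was used to separate proliferating from non-proliferating microglia. PLX5622 blocks the CSF1 receptor on which microglia depend, and those that survive divide when the drug is withdrawn. Cuprizone is a copper chelator that causes demyelination.

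All animals were male mice on the C57BL/6 background, and every group had 2 libraries for H3K27ac and for RNA. The H3K27ac libraries came from wild-type animals whose fixed cells were stained with a Ki67 antibody. They comprised untreated adults labelled Ki67-negative, of 60 days (replicate 1) and 65 days (replicate 2), Ki67-negative and Ki67-positive cells of untreated pups at postnatal day 8 (PND8), Ki67-negative and Ki67-positive cells of 90-day animals after 4 weeks of cuprizone diet, and Ki67-positive cells of 90-day animals that received PLX5622 diet for 17 days from day 70 and then recovered for 3 days (repopulating). The RNA libraries came from untreated 90-day wild-type adults labelled Ki67-negative, and from Ki67-rfp mice, which carry a red fluorescent Ki67 reporter, at PND8 without treatment and at 75 days after the same 17 days of PLX5622, here from day 55, and 3 days of recovery, each sorted into Ki67-negative and Ki67-positive cells. The other marks came from untreated wild-type animals labelled Ki67-negative for Rpb2 (60 and 65 days, 2 libraries), H3K4me3 (75 days, 2 libraries) and adult ATAC-seq (80 days, 1 library). The other 2 ATAC libraries came from Ki67-positive cells at PND8 and from 75-day animals on the PLX5622 schedule of the RNA libraries. Their titles name the Ki67 reporter, whereas their genotype labels say wild type. RNA was not analysed here after cuprizone, so every RNA comparison with adult also compares the reporter strain with the wild type. The file headers of the adult H3K27ac lists carry the word Vehicle, whereas their labels name no treatment.

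The H3K27ac libraries held 15233543 to 22888521 tags, of which 32.6% to 69.7% fell in regions, the lowest share being that of adult replicate 1. The RNA libraries held 6865903 to 10287876 counted reads and 13557 to 14728 detected genes. The summed level of 5 microglia markers (Csf1r, Cx3cr1, P2ry12, Tmem119 and Aif1) was 3819 to 5068 CPM (counts scaled to library size) in the 10 RNA libraries. The labels call the RNA replicates independent biological replicates. The labels do not say whether the H3K27ac replicates came from separate animals, so p-values over those libraries measure only the spread between them, which may be technical.

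The domains were 4000 to 8221 bp wide in adult replicate 1, with a median of 4445 bp, and 4003 to 10309 bp wide in replicate 2, with a median of 4632 bp. They held 7.53% and 6.75% of all tags found in regions of the respective adult library. A transcription start of the count table lay inside 114 of them, and these starts belonged to 135 genes. Of the rest, 11 had a start within 1 kb, 58 lay in a gene farther from any start and 56 lay between genes. The 3 domains nearest the width limit lay near Smap2 (4000 bp in adult replicate 1 and 4226 bp in replicate 2), Tfeb (4001 and 4386 bp) and Ppp6r1 (4002 and 4025 bp). The 3 regions of adult replicate 1 that missed it by the least lay near Orai1 (3998 and 4033 bp), March10 (3997 and 6893 bp) and Ywhah (3995 and 4078 bp).

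The promoters of 6 genes with a start in a domain are shown because the values below turn on their genes or because they carry a searched motif. They were chosen after those values were seen. Each runs from 250 bases before to 30 bases after the transcription start, 5′ to 3′ on the gene's strand, from RefSeq (GRCm38.p6). Capitals mark matches to a motif on either strand. P2ry12 encodes the microglial ADP receptor, and its window, at chr3:59262956-59263235 on the minus strand, held no match.
P2ry12: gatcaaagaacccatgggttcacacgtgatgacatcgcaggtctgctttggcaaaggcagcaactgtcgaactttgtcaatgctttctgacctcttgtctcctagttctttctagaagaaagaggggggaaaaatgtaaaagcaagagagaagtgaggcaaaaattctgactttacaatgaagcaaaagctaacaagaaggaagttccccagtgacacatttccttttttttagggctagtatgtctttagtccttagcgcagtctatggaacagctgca
Jun encodes an AP-1 transcription factor. Its window, at chr4:95052193-95052472 on the minus strand, held a GC box and a MEF2 match, both on the opposite strand.
Jun: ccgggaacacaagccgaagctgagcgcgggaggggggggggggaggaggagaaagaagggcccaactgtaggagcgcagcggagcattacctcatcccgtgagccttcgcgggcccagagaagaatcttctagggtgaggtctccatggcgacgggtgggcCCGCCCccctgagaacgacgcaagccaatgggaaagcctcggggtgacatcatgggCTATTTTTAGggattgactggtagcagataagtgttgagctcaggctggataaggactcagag
Mef2a encodes a MEF2 factor. Its window, at chr7:67372829-67373108 on the minus strand, held a MEF2 match.
Mef2a: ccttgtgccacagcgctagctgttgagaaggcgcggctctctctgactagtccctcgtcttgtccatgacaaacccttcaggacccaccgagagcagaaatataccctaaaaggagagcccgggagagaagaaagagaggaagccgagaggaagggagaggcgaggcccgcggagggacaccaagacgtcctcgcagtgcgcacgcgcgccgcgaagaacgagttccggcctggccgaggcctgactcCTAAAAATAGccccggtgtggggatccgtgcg
Ckb encodes brain-type creatine kinase. Its window, at chr12:111672309-111672588 on the minus strand, held a MEF2 match on the opposite strand.
Ckb: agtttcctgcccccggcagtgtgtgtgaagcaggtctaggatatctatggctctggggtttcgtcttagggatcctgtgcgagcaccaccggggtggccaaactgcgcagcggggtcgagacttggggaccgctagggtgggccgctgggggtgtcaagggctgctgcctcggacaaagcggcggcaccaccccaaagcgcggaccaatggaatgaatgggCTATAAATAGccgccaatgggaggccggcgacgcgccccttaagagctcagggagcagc
Slc31a1 encodes the high-affinity copper importer. Its window, at chr4:62360451-62360730 on the plus strand, held a PU.1 match and 2 GC boxes.
Slc31a1: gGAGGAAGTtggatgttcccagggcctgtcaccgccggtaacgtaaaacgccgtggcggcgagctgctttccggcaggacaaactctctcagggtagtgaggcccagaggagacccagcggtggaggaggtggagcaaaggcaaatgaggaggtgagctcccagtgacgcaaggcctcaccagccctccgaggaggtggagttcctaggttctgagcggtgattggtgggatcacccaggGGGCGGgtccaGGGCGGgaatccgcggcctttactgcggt
Ddias encodes a regulator of cell death after DNA damage. Its window, at chr7:92874218-92874497 on the minus strand, held a CCAAT box on the opposite strand.
Ddias: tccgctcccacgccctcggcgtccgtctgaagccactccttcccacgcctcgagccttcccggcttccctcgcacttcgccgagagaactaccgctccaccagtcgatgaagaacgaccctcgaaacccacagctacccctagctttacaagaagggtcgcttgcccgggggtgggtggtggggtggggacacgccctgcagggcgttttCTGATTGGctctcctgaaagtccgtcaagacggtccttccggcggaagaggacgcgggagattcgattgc

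Motifs were searched as exact strings on both strands in the full RefSeq windows of 300 bases. A window start lay in a domain for 198 windows of 164 RefSeq genes, and 117 of the 135 domain genes of the count table were matched by symbol. For MEF2, 2 strings of 10 bases were searched, namely the capitals in the Mef2a window and the reverse complement of the capitals in the Ckb window. They occurred in 6 of these windows (3.03%), in 0.252% of the 8340 windows that start in narrower adult regions and in 0.274% of all 32851 windows. The 6 windows belonged to Ckb, Dleu2, Elmo2, Mef2a, Jun and its overlapping antisense gene Junos, so 1 match was counted under both Jun and Junos. The PU.1 string GAGGAAGT occurred in 3.03% of domain windows, 3.92% of narrower-region windows and 3.2% of all. The AP-1 string TGACTCA occurred in 4.55%, 3.03% and 5.2%, and the CCAAT string CCAATCAG in 4.55%, 5.84% and 4.1%. The E2F string TTTCGCGC was found in 1.01%, 0.767% and 0.323%. The GC box GGGCGG was found in 62.1%, 67.0% and 35.7%. Domain windows held a median of 20 CpG dinucleotides, against 23 in narrower regions and 7 in all windows. A match is a description of these letters and not a binding site.

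Peaks of other marks were counted in the domains beside those in the 17735 narrower adult regions that both adult libraries shared, 6664 of which held a start. ATAC-seq peaks, which mark open chromatin, lay in all 239 domains in each of the 3 ATAC libraries (adult, PND8 Ki67-positive and repopulating Ki67-positive), with a median of 3 peaks per domain. They also lay in 98.9% to 99.1% of narrower regions with a start and 83.6% to 87.9% of those without one. Per kb, the domains held 0.612 to 0.711 ATAC peaks, fewer than the 1.01 to 1.09 of narrower regions with a start and the 0.819 to 0.936 of those without. Rpb2 is a subunit of RNA polymerase II. In the 2 adult libraries its peaks lay in 108 and 110 of the 114 domains with a start, and in 102 and 93 of the 125 without one. In narrower regions the Rpb2 share was 85.7% and 74.3% with a start and 34.8% and 19.1% without one. Longer regions offer more room for a peak. Per kb, the domains with a start held 0.347 and 0.304 Rpb2 peaks on average in these libraries. That was fewer than the 0.589 and 0.498 of narrower regions with a start. Domains without a start held 0.258 and 0.226 per kb, against 0.265 and 0.145 in the narrower regions without a start.

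H3K4me3 marks active promoters. An H3K4me3 region lay in 111 of the 114 domains with a start in each of 2 adult libraries, and in 72 and 73 of the 125 without one (57.6% and 58.4%). Among narrower regions it lay in 99.4% of those with a start in both libraries, more than the 97.4% of domains. Of narrower regions without a start, it lay in 33.2% and 34.05%. Per kb, domains with a start held 0.261 and 0.259 H3K4me3 regions, fewer than the 0.601 and 0.602 of narrower ones. Without a start, domains held 0.144 and 0.151 per kb, also fewer than the 0.236 and 0.243 of narrower regions. The H3K4me3 region itself spanned at least 4000 bp in 48 and 47 of the 114 domains with a start, against 2.18% and 2.07% of narrower regions with a start. At Tgif1, a repressor in the TGF-beta pathway, it was 6936 and 6898 bp wide. At Plxnb2, a semaphorin receptor, it was 6122 and 6056 bp wide. P2ry12 differed from both, with an H3K4me3 region of 3077 and 3148 bp under an H3K27ac domain of 6162 and 6193 bp.

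The 10 H3K27ac libraries that the definition did not use covered nearly all domains, and what varied was how much of each was called as 1 unbroken region. A region overlapped the domain in all 10 libraries for 238 of 239 domains, and at least 50% of the length was covered in all 10 for 228. The exception, in repopulating replicate 2, was the domain at Tmem204. A region of at least 4000 bp persisted in all 10 libraries at 83 domains (34.7%) and in at least 5 of them at 197, while 3 domains had none. The 83 comprised 41 of the 114 domains with a start and 42 of the 125 without one.

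**Figure D1:**
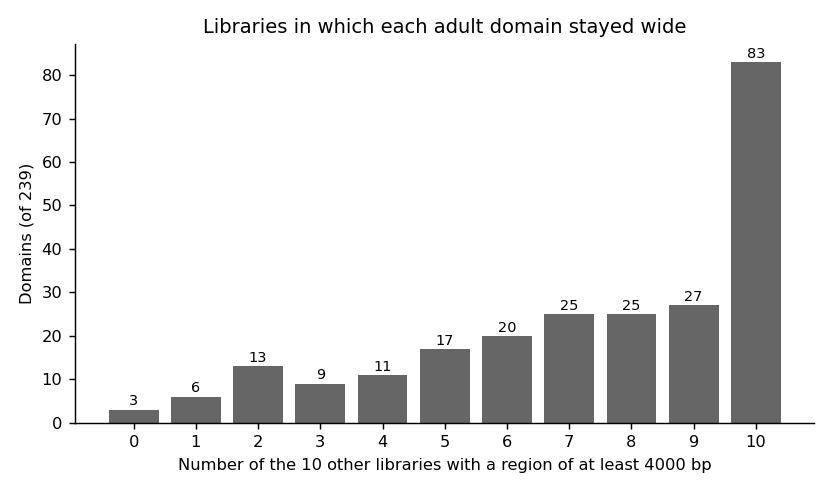
Number of domains (y axis) by how many of the 10 other H3K27ac libraries held a region of at least 4000 bp over them (x axis). The bar at 10 libraries holds 83 domains and the bar at 0 holds 3.

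The domain near Spi1 was among the most persistent. Spi1 encodes PU.1, the lineage factor of macrophages, and the domain lay 9118 bp upstream of its start at chr2:91081578-91087560. It was 5982 and 7288 bp wide in adult, 5699 and 7063 bp in PND8 Ki67-negative, 5619 and 6986 bp in PND8 Ki67-positive, 7299 and 7234 bp in cuprizone Ki67-negative, 7105 and 7165 bp in cuprizone Ki67-positive, and 6959 and 7136 bp in repopulating libraries. The groups overlapped, and the narrowest of the 12 values was 5619 bp. At P2ry12 (chr3:59259400-59265562) the domain measured 6162 and 6193 bp in adult, 6446 and 6221 bp in PND8 Ki67-negative, 7356 and 7807 bp in PND8 Ki67-positive, 6331 and 7629 bp in cuprizone Ki67-negative, 6338 and 7505 bp in cuprizone Ki67-positive, and 5059 and 7533 bp in repopulating libraries. Every library except repopulating replicate 1 was wider than both adult libraries.

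Several other domains with a start stayed wide throughout. Tgif1 (chr17:70848384-70853612) kept 5135 to 5461 bp in the 10 other libraries, and Cerk, a ceramide kinase, 5260 to 6666 bp. The shared domain of Slc16a6, a monocarboxylate transporter family member, and Arsg, a lysosomal sulfatase, kept 5383 to 6231 bp. Efhd2, which encodes a calcium-binding protein, kept 4970 to 5473 bp, and Pla2g15, the lysosomal phospholipase A2, 4869 to 6341 bp. The domain of Trir and Asna1 kept 4875 to 5247 bp, more than its adult widths of 4535 and 4727 bp. The narrowest value among these domains in the 10 libraries was thus 4869 bp.

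The widest domain by its mean adult width lay 94 bp from the start of Junb, an AP-1 factor (chr8:84978842-84986142). It was 7300 and 10309 bp wide in adult, 6988 and 4968 bp in PND8 Ki67-negative, 6853 and 6993 bp in PND8 Ki67-positive, 10400 and 10449 bp in cuprizone Ki67-negative, 5959 and 6767 bp in cuprizone Ki67-positive, and 4695 and 7989 bp in repopulating libraries. The cuprizone Ki67-negative pair was above every other library, adult replicate 2 included. The domain inside Plek, the gene of the platelet and leukocyte protein pleckstrin, was next (chr11:17000442-17008663, 55 bp from the gene's start). It was 8221 and 8288 bp wide in adult, but 5383 and 2220 bp in PND8 Ki67-negative and 2844 and 1888 bp in PND8 Ki67-positive libraries. It was 5686 and 4685 bp in cuprizone Ki67-negative, 8098 and 3122 bp in cuprizone Ki67-positive, and 5558 and 8980 bp in repopulating libraries.

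Others of the 12 widest were held to different degrees. The domain inside Lcp1, the gene of the leukocyte actin-bundling protein L-plastin, remained at least 4000 bp in all 10 other libraries. That of Mgme1, Snord17 and Snx5 did so in 9 and that of Plxnb2 in 8. The domain 590 bp from P2ry13, a further purinergic receptor gene, did so in 6, and that of Ncf1, which encodes a subunit of the phagocyte NADPH oxidase, in 4. Rhoh encodes a GTPase-deficient small G protein of blood cells. Its domain (chr5:65863003-65869239) was 6236 and 6385 bp wide in adult and 6002 and 4739 bp in cuprizone Ki67-negative libraries, but 2506 to 3363 bp in the other 8. A domain between genes at chr7:90028962-90035658, 47986 bp from the start of Eed, was 6696 and 6191 bp wide in adult and 2231 to 3076 bp in all 10 others. That pair of domains thus shared wide adult values, while only Rhoh kept them under cuprizone in Ki67-negative cells.

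**Figure D2:**
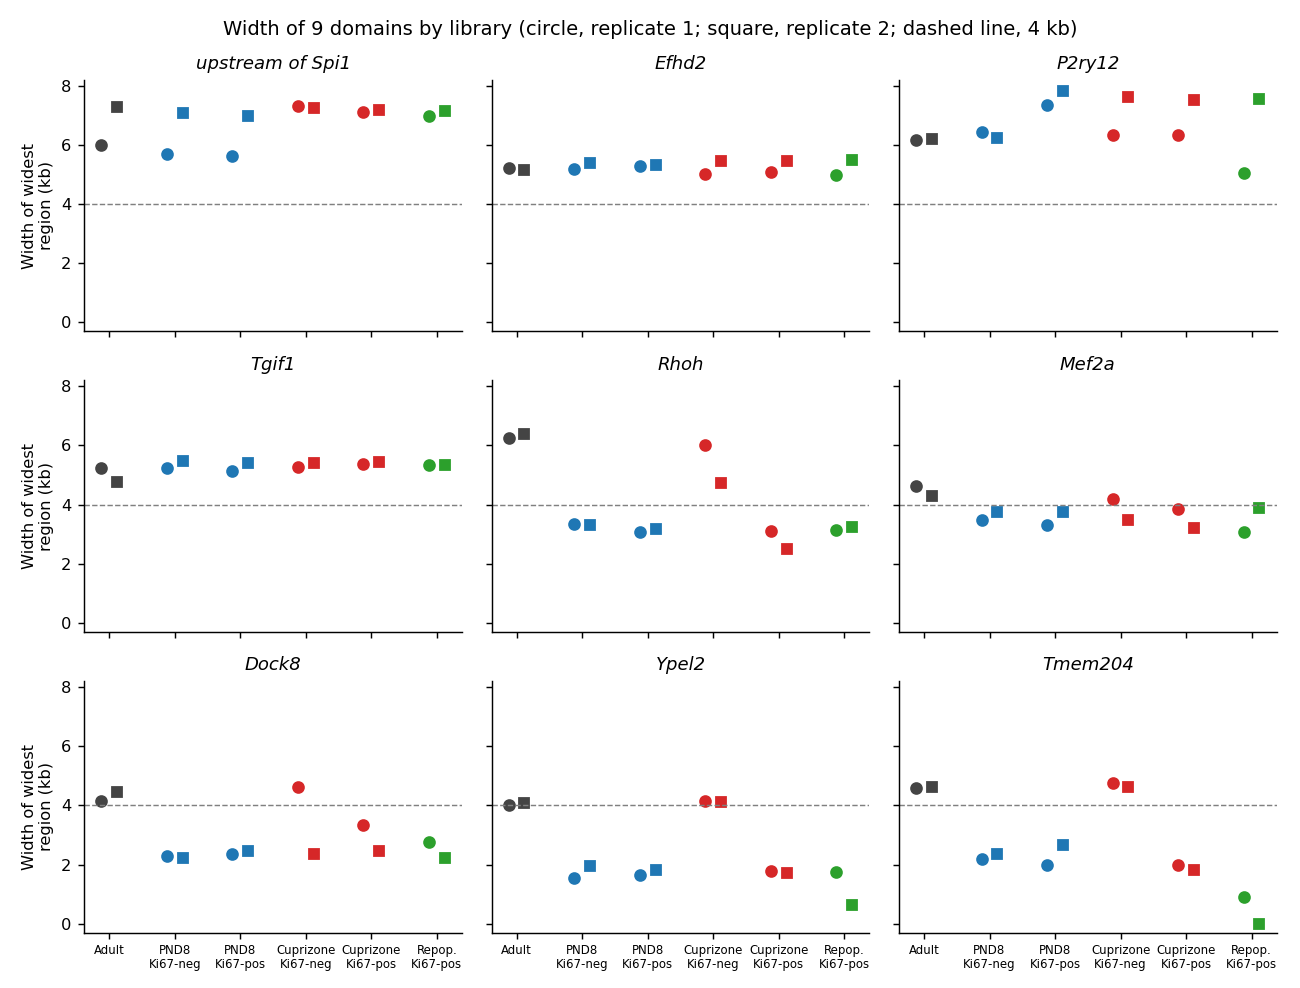
Width in kb of the widest H3K27ac region over 9 domains (y axis) in the 2 libraries of each of 6 groups (x axis). Circles are replicate 1, squares replicate 2, and the dashed line is the 4 kb limit. The domain upstream of Spi1 and those of Efhd2, P2ry12 and Tgif1 stay above the line in all 12 libraries, while Rhoh, Mef2a, Dock8, Ypel2 and Tmem204 drop below it in all PND8, cuprizone Ki67-positive and repopulating libraries.

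The domains with a start that were least covered elsewhere began with Fam167b, of which 63.9% of the length was covered on average over the 10 libraries. Tmem204, a transmembrane protein gene known from vascular endothelium, followed with 66.0% (chr17:25078255-25082823). Its widest region spanned 4568 and 4617 bp in adult, 2189 and 2354 bp in PND8 Ki67-negative, 1974 and 2652 bp in PND8 Ki67-positive, 4740 and 4604 bp in cuprizone Ki67-negative, 1995 and 1827 bp in cuprizone Ki67-positive, and 890 bp in repopulating replicate 1, with no region in replicate 2. Its normalized tag count, the authors' tags per 10000000 tags, summed over the overlapping regions, was 449.6 and 797.3 in adult, 183.3 and 385.3 in PND8 Ki67-positive, 132 and 168.2 in cuprizone Ki67-positive, and 72.3 in repopulating replicate 1. In the cuprizone pairs the Ki67-negative libraries were both wide and the Ki67-positive libraries both narrow.

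The same division by Ki67 under cuprizone was seen at Ypel2, a gene of the yippee-like family (chr11:86993084-86997096). It was 4012 and 4093 bp wide in adult, 4151 and 4112 bp in cuprizone Ki67-negative, and 1788 and 1710 bp in cuprizone Ki67-positive libraries, and 629 to 1935 bp in the PND8 and repopulating libraries. Mef2a (chr7:67370036-67374655) showed no such split. It was 4619 and 4296 bp wide in adult, and 3077 to 4187 bp in the 10 others, of which only cuprizone Ki67-negative replicate 1 reached 4000 bp. Dock8, an activator of the small GTPase Cdc42 in immune cells (chr19:24996530-25000668), was 4138 and 4441 bp wide in adult and 4626 bp in cuprizone Ki67-negative replicate 1, and 2204 to 3342 bp in the other 9 libraries. Nek6, a mitotic kinase gene, and Tm9sf2, a gene of an endosomal membrane protein, kept 4000 bp in 2 of 10 libraries each and the kinase gene Nuak1 in 1. These members were named because they were the least covered, so their low values are a description.

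Over all domains, the share that still held a region of at least 4000 bp averaged lower in PND8 libraries than in the treated adult-age libraries. It was 58.2% and 69.0% in PND8 Ki67-negative, 56.9% and 72.4% in PND8 Ki67-positive, 87.9% and 85.8% in cuprizone Ki67-negative, 74.9% and 79.5% in cuprizone Ki67-positive, and 66.5% and 83.7% in repopulating libraries. The only treated library inside the PND8 range was repopulating replicate 1. The mean was 64.1% ± 7.75 (SD, n = 4) at PND8 and 79.7% ± 7.95 (SD, n = 6) after cuprizone or repopulation, a difference of -15.6 percentage points (exact permutation test over libraries, two-sided, p = 0.0286, adjusted p = 0.124 over 6 such tests). The smallest p this design allows is 0.0048. The difference does not pass the adjusted threshold of 0.05. The test counts the Ki67-negative and Ki67-positive libraries of 1 condition and replicate number as separate units. At PND8 such pairs lay close together, at 58.2% and 56.9% for replicate 1 and 69.0% and 72.4% for replicate 2. If they are not independent, this p is too small, which the test does not take into account.

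Width and tag count differed in the same direction, also short of the threshold. The median width of the widest overlapping region was 4267 bp ± 160 (SD, n = 4) at PND8 and 4502 bp ± 152 (SD, n = 6) in the treated libraries (exact permutation test, two-sided, p = 0.0571, adjusted p = 0.124). The median normalized tag count was 985 ± 73.4 (SD, n = 4) and 1205 ± 181 (SD, n = 6) tags per 10000000 (exact permutation test, two-sided, p = 0.0619, adjusted p = 0.124). The PND8 libraries more often had a domain broken into several regions, in 17.6% to 22.2% of domains, against 6.695% to 17.2% in the treated libraries. Single library median tag counts ran from 896.2 in PND8 Ki67-negative replicate 2 to 1413.5 in cuprizone Ki67-negative replicate 2.

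The file headers carry a numeric code that differs between libraries and that the labels do not explain. Within code 180830, which holds the replicate 1 libraries of PND8 and cuprizone, the PND8 share was 23.8 percentage points below that of cuprizone (means 57.5% and 81.4%, n = 2 each). Within code 190118, 2 PND8 libraries averaged 70.7% and the 1 repopulating library was at 66.5%, so the direction turned there. Width and tag count turned in the same way, with PND8 above the repopulating library by 120.5 bp and 60.5 tags per 10000000. Code 190521 holds no PND8 library. The narrower adult regions differed in the same direction. The share of them overlapped by a region of at least 4000 bp was 0.598% to 1.55% in PND8 and 1.63% to 3.27% in the treated libraries. The share of the domains divided by that of the narrower regions was higher at PND8, by 30.3. The narrower regions were chosen as under 4000 bp in adult, so this divisor is small and moves the ratio strongly. The ratio therefore cannot decide whether the share of the domains itself differs. Divided in this way, the median tag count of the domains was 5.49 to 6.41 times that of the narrower regions at PND8 and 5.40 to 7.598 times in the treated libraries, 2 ranges that overlap (exact permutation test, two-sided, p = 0.70). Leaving out repopulating replicate 1 brought the adjusted p of both the share and the tag count to 0.0476 by the same exact permutation test, with differences of -18.2 points and -276 tags per 10000000. The share of tags in regions was 45.5% to 55.0% in PND8 libraries and 49.9% to 69.7% in the treated ones; its part in the result was not tested.

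Pooled over conditions, Ki67-positive libraries did not differ from Ki67-negative ones beyond their spread. That spread includes the differences between conditions, which the test does not take into account, and repopulation has only Ki67-positive libraries. The pooled test therefore cannot decide whether Ki67 status matters within a condition. The share of domains still at least 4000 bp was 72.3% ± 9.58 (SD, n = 6) in Ki67-positive and 75.2% ± 14.1 (SD, n = 4) in Ki67-negative libraries (exact permutation test, two-sided, p = 0.705, adjusted p = 0.786). The median width differed by -31.8 bp (exact permutation test, p = 0.786, adjusted p = 0.786) and the median tag count by -88.1 tags per 10000000 (exact permutation test, p = 0.476, adjusted p = 0.714). Under the same header code the share differed by -7.11 points (code 180830), 0.418 points (190118) and -4.18 points (190521). Under cuprizone, the 2 Ki67-negative libraries had the highest shares of the 10, and 2 libraries against 2 cannot go below an exact p of 0.333.

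**Figure D3:**
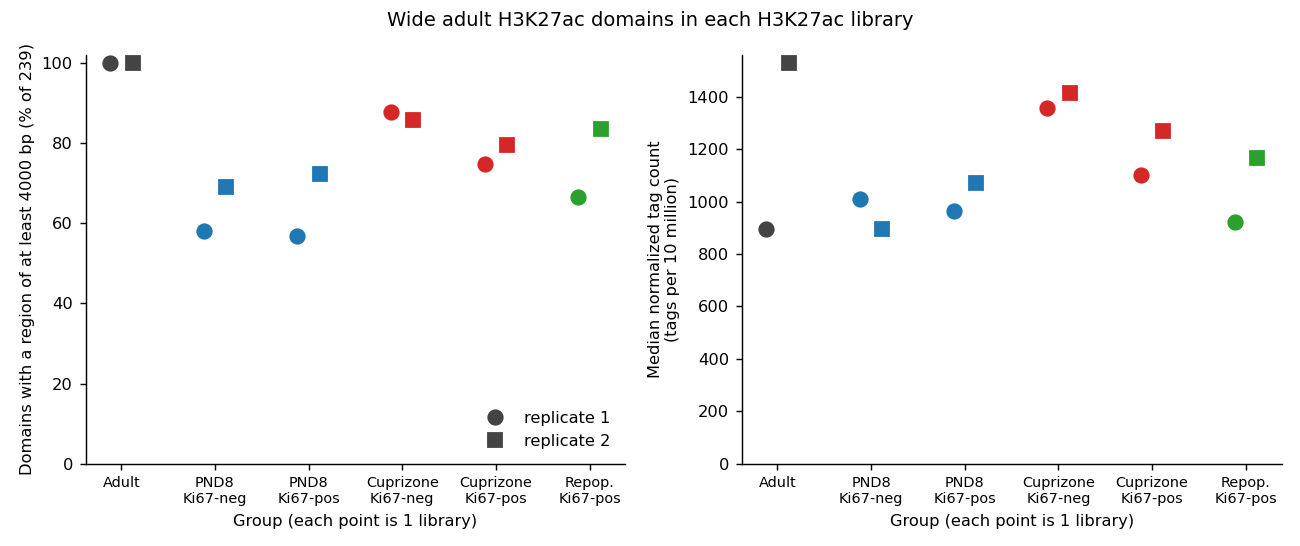
Left, percent of the 239 domains with a region of at least 4000 bp; right, their median normalized tag count in tags per 10000000 (y axes), by group (x axes). Each point is 1 library, with circles for replicate 1 and squares for replicate 2. Adult libraries are at 100% because their widths chose the domains, PND8 libraries lie between 56.9% and 72.4%, and the other 6 between 66.5% and 87.9%.

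Single domains were also compared by whether the libraries of 2 groups overlapped in tag count. In 40 of 239 domains (16.7%) every PND8 library was below every cuprizone and repopulating library, against 14.5% of all 17974 adult regions shared by both adult libraries. In 1 domain every PND8 library was above them, against a background of 3.03%. Both shares of the domains were near or below the background. For width, 15 domains were lower in every PND8 library (background 5.56%) and 5 higher (background 2.61%). The tag count was lower in every Ki67-positive than in every Ki67-negative library at 1 domain (background 1.46%) and higher at 0 (background 1.04%). Both repopulating libraries were below all 8 others outside adult at 19 domains (background 6.84%) and above them at 1 (background 5.54%).

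Genes with a start in a domain were abundant in adult RNA. On the TPM scale, which accounts for gene length and library size, their median level was 85.0 and 87.8 TPM in the 2 adult libraries, against 32.7 and 32.6 TPM for the 7438 genes with a start in narrower adult regions and 2.196 and 2.145 TPM for all 20999 genes. At least 100 TPM was reached by 62 and 63 of the 135 genes (45.9% and 46.7%), against 10.3% and 10.4% of narrower-region genes. The highest adult means were those of Actb, cytoplasmic actin (688.7 TPM), P2ry12 (599.9 TPM), Grn, the lysosomal protein progranulin (454.3 TPM), Serinc3, a membrane protein gene (450.9 TPM), and Slco2b1, an organic anion transporter (380 TPM). These adult levels come from another assay than the one that chose the domains, but from the same cell state. The median over domain genes was 67.0 to 75.6 TPM in the 4 PND8 libraries and 70.1 to 83.3 TPM in the 4 repopulating libraries, below both adult values in each.

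RNA was compared with edgeR's quasi-likelihood test on the counts, with Benjamini-Hochberg adjustment over all 12230 tested genes, and a gene is called at an adjusted p under 0.05. Of the 135 domain genes 133 were tested, and fewer of them were called higher and more lower at PND8 than among all genes. In PND8 Ki67-positive cells 22 were higher than adult (16.5%, background 25.1%) and 48 lower (36.1%, background 24.3%). In PND8 Ki67-negative cells 22 were higher (background 25.4%) and 48 lower (background 21.4%). The median log2 fold change was -0.14 and -0.13 over the domain genes, against 0.00 and 0.03 over all tested genes. These genes were chosen by adult H3K27ac width and were abundant in adult RNA, while adult is the reference here. That holds for every comparison with adult. The part of that choice, and of the larger counts of abundant genes, in these shares was not tested. Without adult replicate 1, 13 were higher in PND8 Ki67-positive cells, and without adult replicate 2, 31 were lower in PND8 Ki67-negative cells. In bulk RNA, fewer cells of a type and less RNA per cell cannot be told apart.

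Repopulating cells were nearer to the background. In Ki67-positive cells 24 domain genes were higher than adult (18.05%, background 23.9%) and 38 lower (28.6%, background 21.0%). In Ki67-negative cells 27 were higher (20.3%, background 21.5%) and 29 lower (21.8%, background 17.6%). The median log2 fold change was -0.055 and -0.044, against -0.01 over all tested genes in both. Counts moved with single libraries. In the Ki67-negative comparison 16 were higher without adult replicate 1, without adult replicate 2 or without Ki67-negative replicate 2. Lower calls numbered 16 without adult replicate 2 and 18 without Ki67-negative replicate 2. In the Ki67-positive comparison 24 were lower without adult replicate 2 and 25 without Ki67-positive replicate 2. The 4 comparisons with adult share the 2 adult libraries, and the adult RNA libraries carry a header code of their own, so the code and the adult state cannot be told apart.

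Markers of other cells also differed between the RNA groups. The summed level of 6 border macrophage markers was 63.3 to 77.1 CPM in adult, 599.0 to 857.4 CPM at PND8 and 26.2 to 42.9 CPM in repopulating libraries. That of 6 monocyte or neutrophil markers was 61.6 and 210.9 CPM in the adult libraries and 3.49 to 9.26 CPM in the rest. The 3 erythroid markers summed to 14.8 to 49.6 CPM at PND8 and at most 4.399 CPM elsewhere. The 6 astrocyte markers summed to 239.5 and 248.3 CPM in adult, 60.7 to 428.7 CPM at PND8 and 405.6 to 558.8 CPM in repopulating libraries, above adult in all 4 of the latter. Nearly all of that sum was Slc1a3 (38.7 to 551.8 CPM). Gfap was at 1.387 to 4.084 CPM at PND8 and at most 0.61 CPM elsewhere. Gja1 was at 2.477 to 8.371 CPM at PND8 and at most 0.694 CPM elsewhere. Slc1a2 was at 0.642 to 12.62 CPM at PND8 and 1.439 to 3.299 CPM elsewhere. Aqp4 and Aldoc were at most 4.084 and 1.98 CPM in any library. The 5 endothelial markers summed to 63.5 and 64.0 CPM in adult, 67.8 and 71.9 CPM in PND8 Ki67-negative, 36.8 and 37.6 CPM in PND8 Ki67-positive, 28.5 and 36.95 CPM in repopulating Ki67-negative, and 18.3 and 23.1 CPM in repopulating Ki67-positive libraries. No marker was at 0 in every library, P2ry12 was the only marker with a start in a domain, and the part of these cells in the RNA results was not tested.

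Ddias rose most among domain genes in each of the 4 comparisons with adult, which share the adult libraries. It was at 1.39 and 1.59 CPM in adult, 23.9 and 26.9 CPM in PND8 Ki67-positive, 12.25 and 12.5 CPM in PND8 Ki67-negative, 18.5 and 21.9 CPM in repopulating Ki67-positive, and 15.1 and 15.5 CPM in repopulating Ki67-negative libraries. No library of the other 4 groups overlapped adult, with log2 fold changes of 4.08 ± 0.238 (SE; edgeR adjusted p = 1.82e-08), 3.04, 3.75 and 3.35. Its domain also holds the start of Prcp, a lysosomal carboxypeptidase gene, whose RNA was at 194.1 and 197.5 CPM in adult and not called in any of the 4 comparisons. The domain was 5613 and 5703 bp wide in adult and 5547 to 5903 bp in 8 of the 10 other libraries, with 3311 bp in PND8 Ki67-positive replicate 1 and 2462 bp in repopulating replicate 1.

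Siglecf, a sialic acid-binding receptor, also rose in each of them. It was at 57.95 and 45.7 CPM in adult, 80.5 and 67.0 CPM in PND8 Ki67-positive, 116.1 and 107.5 CPM in PND8 Ki67-negative, 154.4 and 157.8 CPM in repopulating Ki67-positive, and 184.3 and 184.8 CPM in repopulating Ki67-negative libraries. Its level was lower in Ki67-positive than in Ki67-negative libraries in both conditions, and highest in repopulating cells. Ifi30, the thiol reductase of antigen processing, rose from 104.2 and 99.2 CPM in adult to 263.9 and 315.4 CPM in repopulating Ki67-positive cells (log2 fold change 1.51 ± 0.117 SE, edgeR adjusted p = 3.17e-07). Slc31a1 was at 65.7 and 62.7 CPM in adult and 117.4 and 115.2 CPM in PND8 Ki67-positive cells (log2 fold change 0.86). Gpx1, a glutathione peroxidase, rose by 0.92 on the log2 scale in both Ki67-positive groups, and Ckb by 0.38 at PND8 and 0.43 in repopulating Ki67-positive cells.

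Ccdc122, a coiled-coil protein gene, rose in repopulating Ki67-negative cells from 10.8 and 11.98 to 32.1 and 32.8 CPM. Tuba1b, an alpha-tubulin gene, was at 31.7 and 32.99 CPM in adult and 59.04 and 58.03 CPM in PND8 Ki67-positive cells. Cpt1a, the carnitine palmitoyltransferase that admits fatty acids to mitochondria, was called higher at PND8 and not called in repopulating cells, a difference that was not tested. It was at 91.6 and 81.0 CPM in adult, 198.8 and 207.8 CPM in PND8 Ki67-positive and 183.2 and 189.1 CPM in PND8 Ki67-negative libraries, and at 84.6 to 103.8 CPM in repopulating libraries. Hcst was called higher in repopulating Ki67-negative cells (log2 fold change 0.77, edgeR adjusted p = 0.0354), a call lost with DESeq2 and on leaving out any library of that comparison.

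Tmem204 had the largest fall among the named genes in both Ki67-positive comparisons and in repopulating Ki67-negative cells, but not in PND8 Ki67-negative cells (log2 fold change -1.01), where Hist1h2bg and Il21r fell by 1.67. Its RNA was at 59.9 and 61.95 CPM in adult, 34.9 and 25.9 CPM in PND8 Ki67-negative, 11.9 and 9.25 CPM in PND8 Ki67-positive, 16.65 and 12.95 CPM in repopulating Ki67-negative, and 8.91 and 4.32 CPM in repopulating Ki67-positive libraries. No group overlapped adult, and in both conditions the Ki67-positive pair was below the Ki67-negative pair. The summed endothelial markers given above were also lower in Ki67-positive than in Ki67-negative libraries in both conditions, and lower than adult in every group except PND8 Ki67-negative. Most of that sum was Pecam1, an adhesion molecule of endothelial and blood cells, at 60.6 and 62.3 CPM in adult, 65.6 and 69.8 CPM in PND8 Ki67-negative, 33.3 and 33.5 CPM in PND8 Ki67-positive, 25.45 and 33.7 CPM in repopulating Ki67-negative, and 16.8 and 20.8 CPM in repopulating Ki67-positive libraries. Cldn5, a defining marker of brain endothelium, was at most 0.275 CPM and at 0 in 6 of 10 libraries, and Ly6c1 was at 0 in 8. The other markers of the list did not follow Pecam1. Flt1 was at 1.504 and 2.566 CPM in adult and 0.826 to 3.227 CPM elsewhere, highest in repopulating Ki67-negative libraries. Itm2a was at 1.009 to 1.872 CPM at PND8 and at most 0.305 CPM elsewhere. Among Ki67-positive cells the log2 fold change of Tmem204 against adult was -2.52 ± 0.244 (SE) at PND8 (edgeR adjusted p = 2.16e-06). After repopulation it was -3.17 ± 0.262 (SE, edgeR adjusted p = 5.47e-07). The gene overlaps Ift140, and the strand setting of the counting is not given in the sources used here, so reads of overlapping genes may be shared. The H3K27ac domain over Tmem204 was under 4000 bp or missing in the PND8 and the repopulating Ki67-positive libraries, as given above. Repopulating Ki67-negative cells had no H3K27ac library. Cuprizone Ki67-negative libraries kept the domain, and RNA was not analysed here after cuprizone.

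Il21r, a cytokine receptor gene, was at 245.9 and 260.9 CPM in adult, 75.1 and 55.1 CPM in PND8 Ki67-positive, 81.4 and 78.1 CPM in PND8 Ki67-negative, and 175.1 to 194.0 CPM in the 4 repopulating libraries. The PND8 libraries were the lowest, with a log2 fold change of -1.96 ± 0.119 (SE) in PND8 Ki67-positive cells (edgeR adjusted p = 2.64e-08) and -0.50 in repopulating Ki67-positive cells. Rhoh was at 128 and 137 CPM in adult and at 76.3 to 103.8 CPM in all 8 others, and fell by 0.75 on the log2 scale in PND8 Ki67-positive cells. Mef2d, a MEF2 factor, fell by 0.61 in Ki67-positive cells at PND8 and by 0.56 in those after repopulation. C5ar2, a receptor for complement C5a, fell by 1.08 in PND8 Ki67-positive cells. Dbp, a circadian transcription factor whose gene overlaps Sphk2, fell by 1.04 in PND8 Ki67-negative and 1.16 in repopulating Ki67-positive cells, and Sde2 by 0.96 in the latter.

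For a few genes the lowest values were at PND8. Fam167b was at 24.5 and 24.8 CPM in adult, 5.397 and 6.82 CPM in PND8 Ki67-positive, 7.797 and 8.898 CPM in PND8 Ki67-negative, and 16.55 to 18.6 CPM in repopulating libraries. Ypel2 fell from 68.6 and 57.3 CPM in adult to 28.6 and 19.1 CPM in PND8 Ki67-positive cells (log2 fold change -1.40, edgeR adjusted p = 3.62e-04) and was called higher than adult in repopulating Ki67-negative cells. Arrdc3, an arrestin-domain adaptor gene, fell in repopulating cells, from 66.6 and 89.5 CPM in adult to 41.75 and 33.97 CPM in Ki67-positive and 32.6 and 25.9 CPM in Ki67-negative libraries. Hist1h2bg, a histone gene at 7.63 and 8.43 CPM in adult, was called lower in 3 comparisons, but it has near-identical copies and each call was lost on leaving out adult replicate 2.

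**Figure D4:**
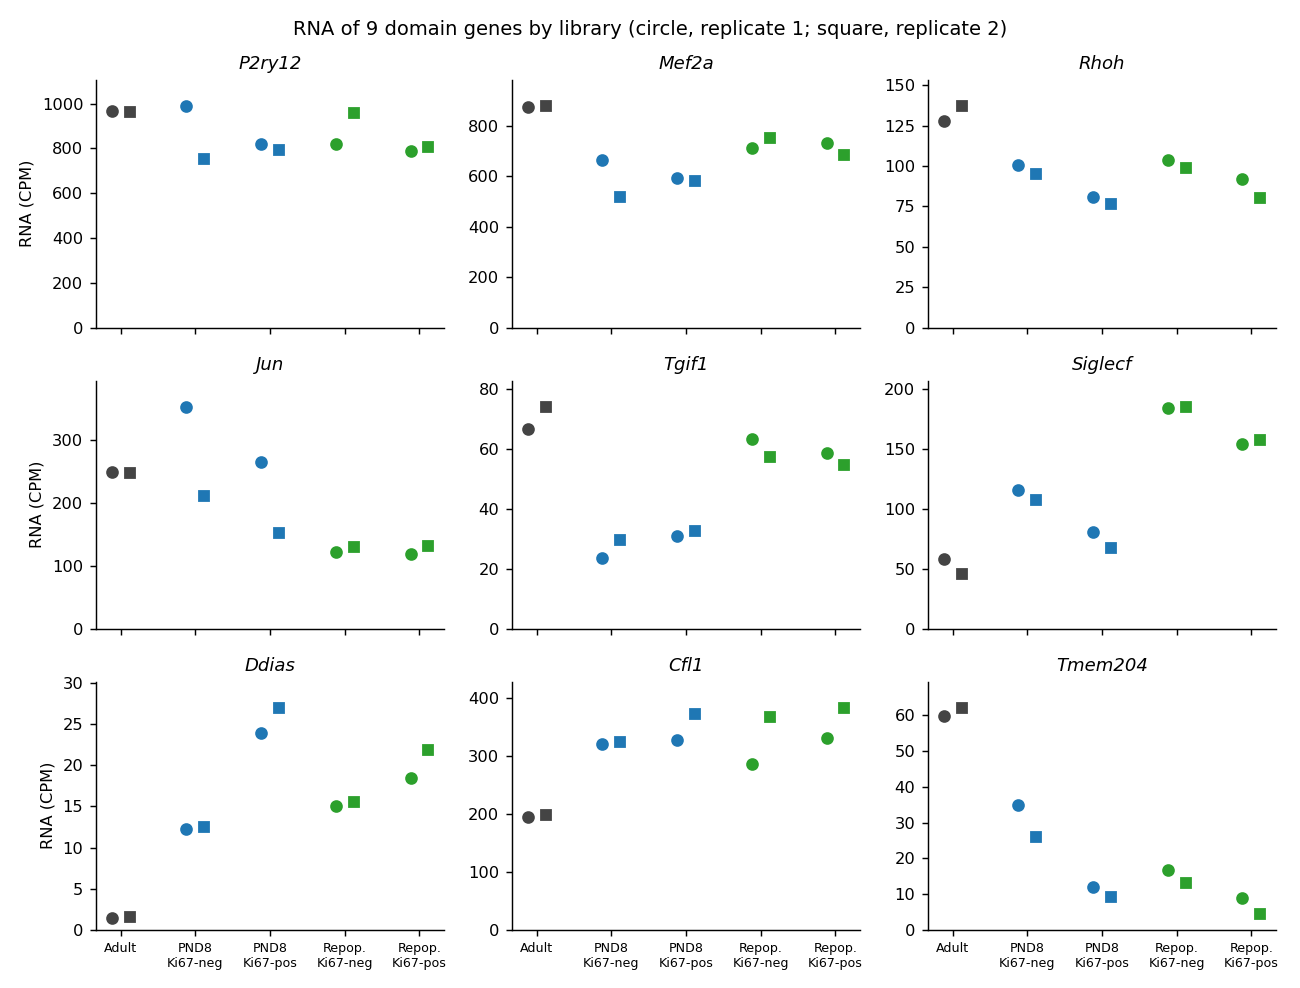
RNA level in CPM (y axes, from 0) of 9 genes with a start in a domain, in the 2 libraries of each of 5 groups (x axis); circles are replicate 1 and squares replicate 2. Ddias is at 1.39 and 1.59 CPM in adult and at 12.25 CPM or more elsewhere, Tmem204 is highest in adult at 59.9 and 61.95 CPM, and P2ry12 overlaps adult in PND8 Ki67-negative libraries.

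Within each condition, few domain genes were called by Ki67 status, as was so among all tested genes. At PND8, 4 were higher in Ki67-positive than in Ki67-negative cells (3.01%, background 2.75%) and 4 lower (3.01%, background 3.15%). Both shares were near the background. Higher were Ddias (log2 fold change 1.04, edgeR adjusted p = 0.00281), Klf6, a zinc finger factor (0.47), Gpr183, an oxysterol receptor whose gene lies in Ubac2 (0.46), and Creb1, the cAMP response factor (0.39). Lower were Tmem204 (-1.51, edgeR adjusted p = 0.00225), Arsg (-0.75), Siglecf (-0.60) and Bco2, a carotenoid oxygenase gene that overlaps Il18 (-0.42). Of 19 alternatives, the Bco2 call (edgeR adjusted p = 0.0466) was lost in 14, DESeq2 among them, that of Klf6 (edgeR adjusted p = 0.0443) in 11, Creb1 in 7 and Arsg in 4, and that of Ddias in 0. Without PND8 Ki67-positive replicate 2, 1 gene was called higher and 0 lower, where Tmem204 had the nearest adjusted p, 0.0578. In repopulating cells 0 domain genes were called higher (background 1.87%) and 1 lower (background 0.867%) by edgeR. The latter was Tmem204 (-1.14, edgeR adjusted p = 0.0486), a call lost in 11 alternatives. Libraries of the same replicate number shared a header code in both conditions. With that code in a fit without the adult libraries, calls were 7 higher and 15 lower at PND8. In repopulating cells they were 3 higher and 3 lower. With the replicate number as a block 9 were lower at PND8. The share over all tested genes is not given for these fits, so their counts cannot be set against a background. In repopulating cells, the main edgeR fit gave 5 higher and 10 lower at an unadjusted p under 0.05, and DESeq2 and limma called 0 higher.

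The homeostatic list, 30 genes that mark resting microglia, had 2 members with a start in a domain, P2ry12 and Gpr183, while P2ry13, Tgfbr1, Itgb5 and Ctsd were among those nearest to others. Over the whole list 0 were higher and 16 lower among Ki67-positive cells at PND8 (background 25.1% and 24.3%) and 2 higher and 10 lower after repopulation (background 23.9% and 21.0%), with medians of -0.28 and -0.03. P2ry12 was at 966.6 and 963.2 CPM in adult, 819 and 793.3 CPM in PND8 Ki67-positive, 987.8 and 750.5 CPM in PND8 Ki67-negative, 787.1 and 805.3 CPM in repopulating Ki67-positive, and 819.6 and 958.5 CPM in repopulating Ki67-negative libraries. It was not called in any comparison with adult (PND8 Ki67-positive log2 fold change -0.26, edgeR adjusted p = 0.0813), and its gene lies within Med12l. Gpr183 fell by 0.49 in PND8 Ki67-positive and 0.95 in PND8 Ki67-negative cells and was not called in repopulating cells. Tgfbr1, a TGF-beta receptor gene with a domain 35966 bp from its start, fell by 0.61 and 0.65 at PND8 and was at 1246 to 1420 CPM in repopulating cells, against 1322 and 1351 CPM in adult.

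Of 15 measured TGF-beta pathway genes, 0 were higher and 10 lower in each PND8 group, with medians of -0.51 and -0.50, and 1 higher and 5 lower in each repopulating group. The background of lower calls was 24.3% and 21.4% in the Ki67-positive and Ki67-negative comparisons at PND8, and 21.0% and 17.6% after repopulation. Tgif1 alone had its start in a domain. It was at 66.7 and 73.9 CPM in adult, 30.95 and 32.6 CPM in PND8 Ki67-positive, 23.5 and 29.6 CPM in PND8 Ki67-negative, and 54.55 to 63.4 CPM in repopulating libraries. Its domain was among the steadiest, at 5135 bp or more in all 10 other libraries, while its RNA fell by 1.15 and 1.40 at PND8 (edgeR adjusted p = 8.29e-06 and 1.95e-06). Tgfbr2, Smad3 and Ski were the nearest genes to a domain and fell in all 4 comparisons. Tgfbr2, the type II receptor, fell by 0.51 and 0.49 at PND8 and by 0.34 and 0.25 in repopulating Ki67-positive and Ki67-negative cells. Smad3, the receptor's signal transducer, fell by 0.70 and 0.66 at PND8 and 0.39 in both repopulating groups.

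The lineage transcription factor list had 31 tested members of 32, of which 4 were higher and 19 lower among Ki67-positive cells at PND8 (background 25.1% and 24.3%) and 2 higher and 15 lower after repopulation (background 23.9% and 21.0%), with medians of -0.33 and -0.27. Mef2a was its single member with a start in a domain. It was at 877.5 and 878.4 CPM in adult, 595.8 and 580.6 CPM in PND8 Ki67-positive, 663.8 and 518.5 CPM in PND8 Ki67-negative, and 685.8 to 751.5 CPM in repopulating libraries. Every other library was below both adult ones, and the gene was called lower in 3 of 4 comparisons (log2 fold change -0.58, -0.57 and -0.31), with -0.26 in repopulating Ki67-negative cells (edgeR adjusted p = 0.0635). Spi1, with its wide upstream domain, was at 223.3 and 231.7 CPM in adult and 200.4 to 248.1 CPM elsewhere and was not called. Mef2c, nearest to a domain inside its gene, fell by 0.30 in repopulating Ki67-negative cells and was not called at PND8, a difference that was not tested.

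The immediate early list, 34 genes induced within minutes of a stimulus or by cell handling and their feedback regulators, had 9 higher and 12 lower among Ki67-positive cells at PND8 (background 25.1% and 24.3%) and 4 higher and 17 lower after repopulation (background 23.9% and 21.0%). The number of higher members at PND8 was near the background. Its members with a start in a domain were Jun, Klf6 and Zfp36l1. Jun was at 248.7 and 247.2 CPM in adult, 265.2 and 152 CPM in PND8 Ki67-positive, 352.1 and 210.7 CPM in PND8 Ki67-negative, and 119.6 to 131.1 CPM in repopulating libraries. The PND8 replicates lay on either side of adult, whereas all 4 repopulating libraries were lower (log2 fold change -0.98 ± 0.232 SE in Ki67-positive cells, edgeR adjusted p = 0.00367). The Jun domain (chr4:95050053-95054218) measured 3999 to 4777 bp in the 10 other libraries. Junb, beside the widest domain, was at 225.4 and 219.8 CPM in adult and 86.3 to 245.5 CPM elsewhere, with a log2 fold change of -0.72 in PND8 Ki67-positive cells (edgeR adjusted p = 0.0362).

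The actin, adhesion and migration list, 20 genes, had 4 members with a start in a domain. Over the list 7 were higher and 8 lower in PND8 Ki67-positive (background 25.1% and 24.3%), and 9 higher and 1 lower in repopulating Ki67-positive cells (background 23.9% and 21.0%), with medians of 0.01 and 0.23. Cfl1, the actin-severing protein cofilin, rose in all 4 comparisons, from 195.5 and 199.2 CPM in adult to 285.7 to 382.7 CPM elsewhere. Rgs2, an inhibitor of G protein signalling, fell at PND8 from 307.1 and 305.7 CPM to 154.1 to 195.6 CPM, and was at 266.5 to 281.5 CPM in repopulating cells. Dock8 fell at PND8 by 0.47 and 0.59 and was above both adult libraries in all 4 repopulating libraries without a call. Actb was not called, at 838.8 to 1144 CPM in all libraries.

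The other lists had no member with a start in a domain. Their counts stand against a background of 25.1% higher and 24.3% lower at PND8, and 23.9% higher and 21.0% lower after repopulation. Of 26 cell cycle genes 21 were higher and 1 lower among Ki67-positive cells at PND8 and 23 higher and 1 lower after repopulation. Of 20 interferon-response genes 5 were higher and 2 lower, and 19 higher and 0 lower, in the same comparisons, so their higher calls at PND8 were at the background share. Of 20 disease-associated microglia genes 14 were higher and 0 lower, and 11 higher and 5 lower. Only Ctsb, a cathepsin gene that overlaps Fdft1, was the nearest gene to a domain among these. Of 20 cytokine and chemokine genes 7 were higher and 6 lower, and 6 higher and 2 lower.

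Domain width and RNA were set side by side, with genes grouped by the H3K27ac width over their domain. The grouping was made after both were seen and carries no test, and genes of 1 domain share its width. Of the 133 genes, 17 had a domain under 4000 bp in all 4 PND8 libraries. In PND8 Ki67-positive cells 12 of these were called lower (70.6%) and 0 higher, with a median log2 fold change of -0.47. Over all tested genes 24.3% were lower and 25.1% higher. The 12 were Creb1, Dock8, F9, Fam167b, Lpxn, Mef2a, Nuak1, Rgs2, Rhoh, Tm9sf2, Tmem204 and Ypel2. The 5 not called were Cap1, Tctex1d4, Tsc22d4, Zfand3 and Zfp91. Another 61 genes had a domain that kept 4000 bp in all 4 PND8 libraries. Of these, 16 were lower (26.2%) and 15 higher, with a median of -0.09. The remaining 55 genes had mixed widths, and 20 were lower (36.4%) and 7 higher, with a median of -0.13. In PND8 Ki67-negative cells 10 of the 17 were lower (58.8%) and 0 higher. Of the 61, 18 were lower and 15 higher, and of the 55, 20 were lower and 7 higher. Over all tested genes 21.4% were lower and 25.4% higher in that comparison.

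Genes were grouped in the same way by the 2 repopulating libraries. The domain of 16 genes was under 4000 bp in both repopulating libraries. Of these, 9 were lower in Ki67-positive cells (56.2%) and 0 higher, with a median log2 fold change of -0.36. Over all tested genes 21.0% were lower and 23.9% higher. The 9 were Dbp, Klf3, Mef2a, Mef2d, Rhoh, Slc43a2, Tm9sf2, Tmem204 and Zfp532. Those not called were Dock8, Hist1h2ae, Hist1h2bg, Ncf1, Sh2b3, Slco2b1 and Ypel2. Of the 92 genes with a domain of at least 4000 bp in both, 20 were lower (21.7%) and 20 higher, with a median of -0.02. The remaining 25 had mixed widths, and 9 were lower (36.0%) and 4 higher, with a median of -0.06. Across the 133 genes, the share of the domain covered and the log2 fold change had a Pearson r of 0.23 and a Spearman coefficient of 0.19 in PND8 Ki67-positive, 0.24 and 0.24 in PND8 Ki67-negative, and 0.34 and 0.17 in repopulating Ki67-positive cells. These are across genes, which are not independent replicates and sit in 114 domains. Tgif1, with a steady domain, had lower RNA at PND8.

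**Figure D5:**
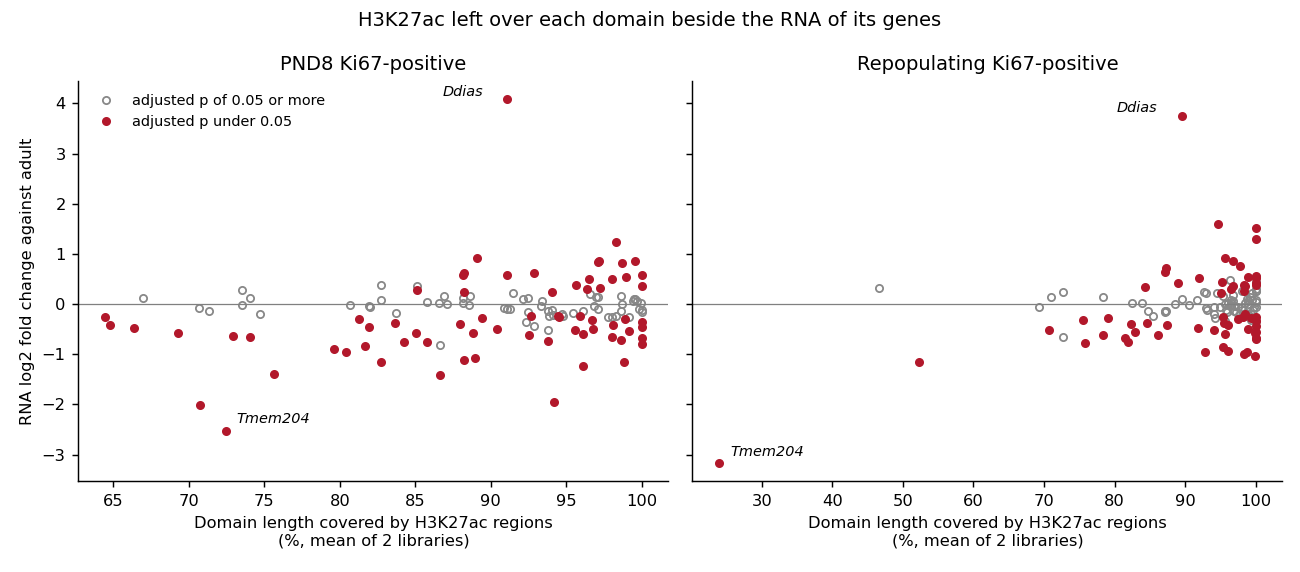
RNA log2 fold change against adult (y axis) beside the percent of the domain length covered by H3K27ac regions, mean of 2 libraries (x axis), for 133 genes with a start in a domain, in PND8 Ki67-positive (left) and repopulating Ki67-positive (right) cells. Filled points are called at an adjusted p under 0.05 and open points are not. Most points lie at high coverage with fold changes on both sides of 0, and Tmem204 has low coverage and the lowest fold change.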

How the data were processed

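The members, gene lists and comparisons were chosen with earlier results of these data known. H3K27ac, Rpb2, H3K4me3 and ATAC regions were deposited as HOMER region lists, which per the file headers were called in each library separately with a peak size of 500 bp and a minimum distance of 1000 bp. For H3K27ac the headers give a limit of 4-fold over input and a false discovery rate of 0.001. Per the file headers, the signal of a region is the authors' normalized tag count per 10000000 tags. The score and the fold ratio over input that the authors deposited for each region were used only to filter regions as alternatives. RNA was deposited by the authors as raw counts per gene and as TPM, per the file headers counted with HOMER over exons of mm10. Per the submitters' processing notes, STAR 2.7.0f, Bowtie2 2.3.4.1, HOMER 4.11 and DESeq2 were used. The strand setting of the counting is not given in the sources used here, so reads from overlapping genes may not be separated.

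The widest overlapping region was taken as a domain's width in each library, and tags were summed over overlapping regions. Lists were called separately, so width and tags also move with how much was called. Tests on domains were exact permutation tests over libraries with Benjamini-Hochberg adjustment over 6 tests. Counts were fitted with edgeR 4.0.16 (glmQLFit and glmQLFTest, TMM, filterByExpr) in 1 fit of all 10 RNA libraries, with a threshold of 0.05. CPM values are on TMM-scaled library sizes. The edgeR test returns no SE, so the SE given is the absolute log2 fold change divided by the square root of the test's F statistic. limma 3.58.1 on log2(TPM + 1) or log2(TPM + 0.1) and DESeq2 1.42.0 served as alternatives. The edgeR step was tested on simulated counts for PND8 Ki67-positive against adult (11582 genes). It called 86 of 98 genes changed by a log2 fold change of 1 and 102 of 102 changed by 2. It also called 9 others. All simulated libraries were drawn from the adult means with the trend of dispersion, and no other genes were changed. In the data 25.1% of genes were called higher and 24.3% lower in that comparison, so recovery and false calls there may differ. Replicate counts differed beyond sampling noise in every group (chi-square per degree of freedom 2.55 to 11.5), so none was merged.

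Named are the 12 widest domains by mean adult width, the 8 domains with a start that stayed widest and the 8 least covered in the 10 other libraries, and the 3 on either side of the width limit. Named genes are the 5 called domain genes with the largest rise and fall in each comparison with adult, the 4 in each Ki67 comparison, with groups that do not overlap and at least 5 CPM in a group, and members of the lists (homeostatic, lineage transcription factors, immediate early and feedback, cytokine and chemokine, disease-associated, interferon, TGF-beta pathway, cell cycle, actin). Other genes, such as C5ar2, Mef2d, Ckb, Prcp, Rhoh RNA and those in the comparison of width with RNA, were chosen after their values were seen. Promoter windows came from RefSeq (GRCm38.p6). A few items that these rules take are not reported here. Input libraries were not analysed here.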

Additional observations from a re-analysis of the deposited data

Results flagged for a closer look

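In all, 10 genes with a start in a domain had every PND8 library on one side of both adult libraries and every repopulating library on the other. Lower at PND8 and higher in repopulating cells were 6 of the 133 tested, against 3.33% of all 12230 tested genes, and the reverse held for 4, against 2.4%, so both counts were near the background. The difference between the PND8 and the repopulation effect was not tested, and both are measured against the same adult libraries. The log2 fold change against adult was -0.57 in Ki67-positive cells at PND8 and 0.22 after repopulation for Ccng2, a cyclin family gene, and -0.29 and 0.38 for Ddi2, a protease gene that overlaps Rsc1a1. It was -0.47 and 0.15 for Dock8, and -0.23 and 0.25 for Ifngr2, a chain of the interferon-gamma receptor. Klf6 had -0.26 and 0.23, and Lpxn, the adhesion adaptor leupaxin, had -0.66 and 0.30. Of these, Ccng2, Ddi2, Ifngr2 and Lpxn were called in both comparisons by edgeR. In the opposite direction, Evi2a, which lies in an intron of Nf1, had 0.24 at PND8 and -0.14 in repopulating cells. Nek6 had 0.13 and -0.78, Slc43a2, an amino acid transporter gene, had 0.15 and -0.47, and Zfp91 had 0.12 and -0.01. Lpxn and Zfp91 share a domain.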

How the results depend on the processing

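For the 6 H3K27ac tests, 105 alternative values kept their direction and their side of the threshold, 7 turned in direction and 2 newly passed the threshold. Of the RNA counts, 223 stayed within 1.5 times of the reported count and 69 did not; the cause was not tested unless named. Depth and the number of regions called limit widths, and 2 libraries per group limit every RNA call. The RNA backgrounds above belong to the main fit, and the share over all tested genes is not given for the other fits.

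The share difference between PND8 and the treated libraries ranged from -18.3 to -13.2 points on leaving out 1 library, the width difference from -285 to -179.5 bp and the tag difference from -276 to -178 per 10000000 tags. Without repopulating replicate 1 the share (-18.2) and tag count (-276) passed. Divided by the small share of the narrower adult regions, the share became a ratio, which was higher at PND8 by 30.3. That value is not in percentage points and cannot be set beside the differences above. Between Ki67-positive and Ki67-negative libraries the share difference ranged from -8.58 to 1.325 points, width from -121 to 28 bp and tags from -179 to -6.9. The share turned without cuprizone Ki67-negative replicate 1 (1.325), its replicate 2 (0.628) or PND8 Ki67-positive replicate 1 (0.188), and the width turned without the same libraries (28, 10.7 and 26.85 bp). Permuting libraries only within header codes, chosen after seeing the data, gave adjusted p of 0.444 for each PND8 comparison. With the replicate number as a block, the adjusted permutation p was 0.06, 0.06 and 0.14 for share, width and tags, so no call changed.

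On leaving out 1 RNA library, higher and lower calls against adult were 13 to 23 and 36 to 57 (PND8 Ki67-positive), 16 to 22 and 31 to 56 (PND8 Ki67-negative), 16 to 30 and 24 to 45 (repopulating Ki67-positive), and 16 to 35 and 16 to 37 (repopulating Ki67-negative). For Ki67 they were 1 to 8 and 0 to 4 at PND8, and 0 to 1 and 0 to 2 in repopulating cells. With genes counted by any overlap of the transcript, lower calls against adult were 85, 79, 73 and 56 in that order of groups. With domains of at least 3000 bp, which hold more genes (515 tested), higher and lower calls were 95 and 182, 86 and 171, 113 and 123, and 109 and 92, and for Ki67 7 and 16 at PND8 and 1 and 2 in repopulating cells. With at least 5000 bp (31 tested) they were 2 and 12, 2 and 14, 4 and 10, and 4 and 10, and for Ki67 1 and 1 at PND8 and 0 lower in repopulating cells.

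At PND8, the Ki67 calls were 7 higher and 15 lower when the header code entered the fit, 7 and 7 with no low-count filter, 2 and 2 with limma on log2(TPM + 0.1), 2 lower with limma on log2(TPM + 1), 1 higher with only the groups compared and 9 lower with the replicate block. In repopulating cells the lower calls were 2 with DESeq2, 0 with library sizes only, with either limma fit or with only the groups compared, 3 with no filter and 2 with the replicate block, and 3 higher and 3 lower with the header code. Same-numbered libraries deviated together in the Ki67 comparisons (correlation 0.338 at PND8 and 0.263 in repopulating cells) and not in those with adult, but the labels state no shared batch and there are 2 pairs. A header-code term could not be fitted for the comparisons with adult. Counting peaks above the median score of each list, 74.9% and 67.4% of domains held an Rpb2 peak in adult. An H3K4me3 region was held by 27.2% and 29.3%. With a start, the Rpb2 shares were 93.0% and 91.2% of domains and 61.3% and 50.8% of narrower regions. The H3K4me3 shares with a start were 38.6% and 45.6% of domains and 65.1% and 64.4% of narrower regions. Without a start, the Rpb2 shares were 58.4% and 45.6% of domains and 14.5% and 7.87% of narrower regions. Motifs at ATAC peak centres were not run.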
